A study of Homo sapiens with 12 samples.

Results

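The measurements below concern 10 transcription factors of the ETS family in HCT116, a human colorectal cancer cell line: the PEA3 factors ETV4 and ETV5, and 8 further factors, ELK1, ELK3, ELK4, ETS1, ETS2, ELF3, EHF and GABPA. They were chosen by gene symbol, and all 10 were found among the 15798 genes of the deposited ribosome profiling table. HCT116 dishes received 100 nM trametinib, an inhibitor of the kinases MEK1 and MEK2, or the solvent DMSO for 24 h, and a short exposure to cycloheximide, which halts ribosomes, preceded lysis in all groups. The cytoplasmic lysates gave input RNA (fragmented at random, a measure of mRNA abundance) and ribosome protected fragments (footprints, the mRNA stretches covered by ribosomes), with 3 libraries in each of the 4 groups DMSO input, trametinib input, DMSO footprints and trametinib footprints. This is a single cell line at a single dose and time. The study calls the replicates biological, while the labels do not describe how they were separated. The p-values set a difference between groups against the spread between these libraries.

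ETS factors share a DNA-binding domain that recognises sites with the core GGAA, and many of them are end points of the RAS, MEK and ERK kinase cascade. Transcription of the PEA3 genes is released when ERK signalling inactivates the repressor CIC, while their proteins are removed through the ubiquitin ligase COP1. The ternary complex factors ELK1, ELK3 and ELK4 sit on DNA together with SRF and are phosphorylated by ERK, as are ETS1 and ETS2. ELF3 and EHF are factors of epithelial cells, and GABPA works with a GABPB subunit at promoters of widely used genes.

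ETV4 lies on chromosome 17 from 43527844 to 43579620 (minus strand) and ETV5 on chromosome 3 from 186046314 to 186110318 (minus strand), in the Gencode release 44 annotation of GRCh38. ETS1 (128458761 to 128587558, minus strand) and EHF (34621093 to 34663288, plus strand) are on chromosome 11, and ETS2 (38805183 to 38824955, plus strand) and GABPA (25734570 to 25772460, plus strand) on chromosome 21. ELK4 (205597556 to 205632011, minus strand) and ELF3 (202007945 to 202017183, plus strand) are on chromosome 1, ELK1 on chromosome X (47635521 to 47650604, minus strand) and ELK3 on chromosome 12 (96194375 to 96269824, plus strand). The question of whether a short read can be given to ETV4 or to ETV5 was examined on their coding sequences, since the counts are of reads in open reading frames. The longest run of coding bases found in both genes was 33 bases, at coding bases 1140 to 1172 of ETV4 and 1221 to 1253 of ETV5, which is chr17:43529193-43529225 and chr3:186052088-186052120 on the minus strand and within a coding exon of each gene. The run is shown in capitals, with neighbouring coding bases (89 in all, joined across an exon boundary) in lower case, because it is where these transcripts are most alike:
ETV4: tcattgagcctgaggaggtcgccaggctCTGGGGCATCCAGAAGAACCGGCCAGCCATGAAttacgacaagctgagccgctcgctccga
ETV5: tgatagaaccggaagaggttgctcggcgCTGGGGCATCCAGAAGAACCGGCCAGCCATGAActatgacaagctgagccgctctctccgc
Sharing with any other gene was searched as exact stretches of 30 bases, so shorter reads and matches with mismatches were not covered. Of all such stretches in the coding sequences, 0.281% of those of ETV4 and 0.267% of those of ETV5 occurred in another gene. The same share was 0 for ELK3, ELK4, ETS1 and EHF and 0.508% for ETS2. It was 7.81% for ELK1, shared with 3 pseudogenes, 7.84% for ELF3, shared with an overlapping non-coding gene, and 75.5% for GABPA, shared with its processed pseudogene GABPAP. By the study's methods a read had to fall in annotated reading frames of a single gene symbol, and a processed pseudogene has no annotated reading frame, so such reads may have stayed with GABPA. GABPA counts are therefore less certain than those of the other members, as they may include reads of GABPAP.

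Counts summed to between 2276693 and 2845568 per input library and to between 10127477 and 19181588 per footprint library, so a member with few input counts is measured more precisely in footprints. Levels are given as normalised read counts, that is, counts after division by each library's size factor, with mean ± SD and n = 3. A change is the log2 ratio of trametinib to DMSO, followed by its standard error (SE) or 95% interval, and adjusted p-values come from edgeR's quasi-likelihood test over 10663 genes. The treatment labels were checked on 12 output genes of ERK signalling, and 12 of 12 fell in both assays. Of all tested genes, 16.9% fell in input and 25.6% in footprints. DUSP6, SPRY2, SPRY4 and EGR1 reached the minimum of 10 counts in DMSO input libraries only, and so entered the test through DMSO. DUSP4 and FOSL1 reached it in 1 and 2 of the trametinib input libraries. Without a count filter, 12 of 12 also fell in both assays. In footprints 11 of 12 were called by DESeq2, with scaling by library totals and without any one of the trametinib libraries, PHLDA1 being the gene that was lost. DUSP6, an ERK phosphatase, had the largest change of these genes. It fell by 7.70 in input and by 8.28 in footprints on the log2 scale (adjusted p = 3.1e-08 and 6.9e-07). PHLDA1 had the smallest change, a fall of 0.90 in each assay (adjusted p = 0.012 and 0.031). Of the marker lists, the 6 epithelial markers summed to between 22342 and 58589 per library. The 5 leukocyte markers summed to at most 11.1, with CD3E at 0 in every input library. LYZ was higher with trametinib in footprints, at 0.83 ± 0.57 in DMSO and 8.28 ± 1.37 in trametinib libraries. The 4 fibroblast markers in the table summed to at most 81.9 in DMSO libraries and to between 121 and 191 in trametinib libraries. COL1A1 was present in every group, with means of 66.9 in DMSO input and 58.0 in trametinib input. In footprints its means were 42.2 in DMSO and 48.8 in trametinib libraries. COL1A2 and DCN were at 0 in all 6 footprint libraries, and COL3A1 made the difference between treatments, at 0.72 ± 1.25 in DMSO input and 82.3 ± 22.9 in trametinib input. Endothelial markers summed to at most 30.2 in DMSO and 61.8 in trametinib libraries. Among them VWF was higher with trametinib, at 9.42 ± 8.92 in DMSO input and 55.4 ± 3.34 in trametinib input. KDR, with few counts, was lower with trametinib in footprints, at 2.37 ± 0.82 in DMSO and 0.40 ± 0.08 in trametinib libraries. The part of these markers in the changes of the ETS factors was not tested.

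MEK1/2 inhibition was followed by a near-complete loss of both PEA3 members from input and footprints, while the other 8 factors moved far less and in both directions. ETV4 had input counts of 235, 294 and 426 in the 3 DMSO libraries and of 16.8, 20.6 and 18.0 in the 3 trametinib libraries. The groups lay far apart. Like ETV5, it passed the filter on low counts through the DMSO input libraries, with at least 109 counts in each. The mean was 17.2-fold lower, and the fitted change was -4.11 (SE 0.31, 95% interval -4.78 to -3.43, adjusted p = 8.1e-07). Its footprints were 133, 149 and 150 in DMSO and 6.14, 5.75 and 7.14 in trametinib libraries. Footprints of ETV4 were tighter between DMSO libraries than its input (SD 9.77 against a mean of 144, compared with 97.8 against 318), and their mean was 22.7-fold lower, a change of -4.51 (SE 0.18, adjusted p = 3.6e-07). In bulk libraries such as these, fewer cells with an mRNA and less of it per cell cannot be told apart.

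ETV5 had the higher mean of both PEA3 factors in DMSO and was the member with the largest change. Its input counts were 1279, 624 and 492 in DMSO and 14.4, 0 and 12.9 in trametinib libraries. The trametinib input libraries rest on 6, 0 and 5 raw counts, and a count of 0 in replicate 2 allows up to 3 counts, or 7.72 normalised (counting error only). Footprints resolved the remainder better: 1719, 970 and 807 in DMSO against 7.99, 12.3 and 12.8 in trametinib libraries, from raw counts of 26, 30 and 27. In both assays the groups were far apart. The mean was 87.8-fold lower in input and 105-fold lower in footprints. The fitted changes were -6.44 in input (SE 0.54, 95% interval -7.60 to -5.28, adjusted p = 1.9e-06) and -6.75 in footprints (SE 0.36, 95% interval -7.58 to -5.93, adjusted p = 1.8e-06). The 95% intervals of ETV4 and ETV5 did not overlap in either assay, and the difference between both genes was not tested further. Per kilobase of coding sequence, footprints of ETV5 exceeded those of ETV4 12.3-fold, 6.20-fold and 5.09-fold in the 3 DMSO libraries and 1.23-fold, 2.03-fold and 1.71-fold in the 3 trametinib libraries. In input the same ratio was 5.16, 2.02 and 1.10 in DMSO and 0.81, 0 and 0.68 in trametinib libraries, so that the lead of ETV5 was small in DMSO input replicate 3 and absent in trametinib input.

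ETV1, the other PEA3 gene in the family, was not among the 10 members and is given because it completes the subfamily. Its input counts were 263, 264 and 187 in DMSO and 26.5, 30.9 and 36.0 in trametinib libraries. It fell by 2.94 in input and by 2.58 in footprints on the log2 scale (adjusted p = 2.9e-06 and 3.3e-06). All 3 PEA3 genes thus fell in both assays, and their input levels were 7.65-fold (ETV1), 17.2-fold (ETV4) and 87.8-fold (ETV5) lower on average.

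**Figure D1:**
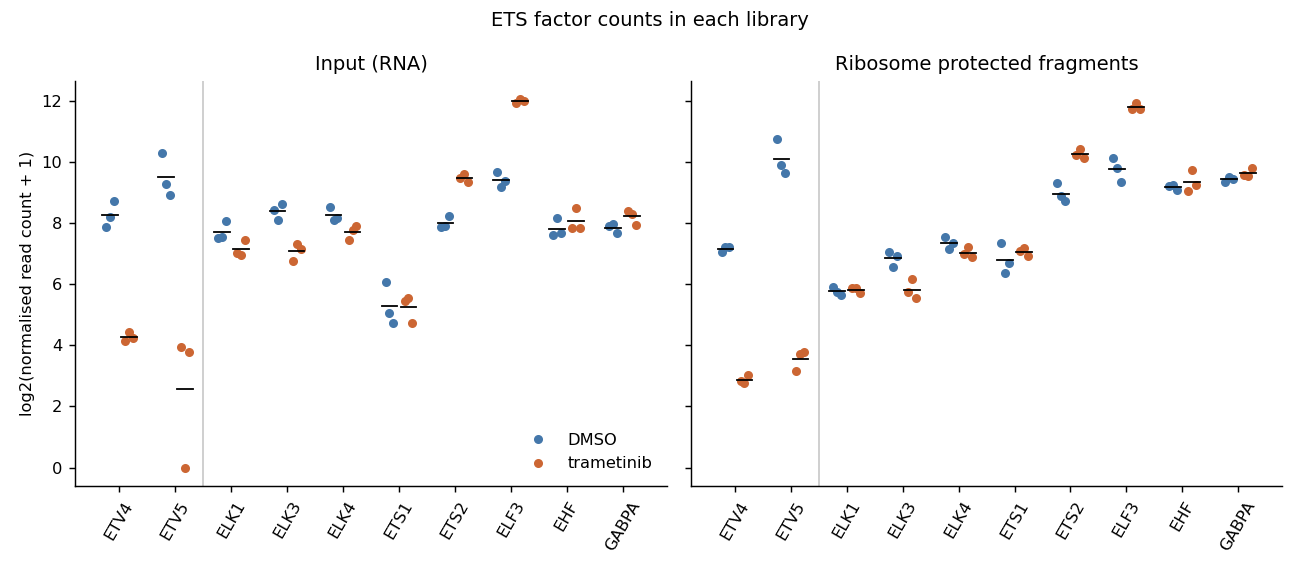
Normalised read counts of the 10 ETS factors as log2(count + 1) in each of the 12 libraries, with input on the left and footprints on the right. Points are libraries (replicates 1 to 3 from left to right in each cluster), black lines are means of the log2 values, and the grey line separates the PEA3 factors ETV4 and ETV5, whose trametinib points lie far below their DMSO points, from the other 8 factors.

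Among the ternary complex factors, ELK3 fell, ELK4 was at the border of the test and ELK1 did not pass it. ELK3, which acts as a repressor until ERK phosphorylates it, had input counts of 347, 274 and 398 in DMSO and of 108, 160 and 141 in trametinib libraries. Its footprints went from 131, 94.5 and 122 to 52.8, 71.1 and 46.1. Neither assay had overlapping groups. The changes were -1.32 in input (SE 0.21, adjusted p = 0.00046) and -1.04 in footprints (SE 0.20, adjusted p = 0.0026), leaving 40.1% and 48.9% of the DMSO level. ELK4 had input counts of 367, 274 and 288 in DMSO and of 176, 221 and 242 in trametinib libraries, without overlap. Its input change of -0.54 (SE 0.19, adjusted p = 0.047) was lost under another scaling of the libraries (TMM, adjusted p = 0.052) and without any one of 5 of the 6 input libraries, DMSO replicate 3 being the exception (adjusted p = 0.040 to 0.19 over the 6). The footprint change of ELK4 was -0.32 (SE 0.15, adjusted p = 0.10), and its footprint counts overlapped between DMSO (188, 143 and 161) and trametinib (126, 149 and 119). ELK1 had input counts of 181, 186 and 272 in DMSO and of 130, 124 and 175 in trametinib libraries, which did not overlap, with a change of -0.57 (SE 0.23, adjusted p = 0.071). Leaving out each input library in turn gave adjusted p-values of 0.029 (without DMSO replicate 1) to 0.23, the other 5 staying above the threshold. With a replicate block it was 0.028, although the numbers were not shown to pair the input libraries. ELK1 footprints were 58.9, 53.4 and 49.0 in DMSO and 57.5, 58.3 and 51.4 in trametinib libraries, a change of 0.05 with a 95% interval of -0.29 to 0.39.

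ETS2 rose, while no change was detected for its relative ETS1. ETS2 input counts were 237, 242 and 300 in DMSO and 722, 793 and 658 in trametinib libraries, and its footprints were 634, 477 and 421 against 1198, 1382 and 1117. Every trametinib library lay above every DMSO library. The changes were 1.48 in input (SE 0.17, adjusted p = 2.7e-05) and 1.27 in footprints (SE 0.17, adjusted p = 0.00033), a 2.79-fold and a 2.41-fold higher mean. ETS1 was sparse in input, with 31, 15 and 11 raw counts in DMSO and 18, 18 and 10 in trametinib libraries. Its input change of -0.12 had a 95% interval of -0.98 to 0.74, which leaves room for a decrease or an increase of considerable size. ETS1 footprints had a mean of 116 ± 42.4 in DMSO, with 164 in replicate 1, and of 134 ± 11.9 in trametinib libraries, a change of 0.20 (SE 0.23, adjusted p = 0.50). That value depends on DMSO replicate 1, the highest of the DMSO libraries. Without it the footprint change was 0.53 (adjusted p = 0.0062) and, without DMSO input replicate 1, the input change was 0.40 (adjusted p = 0.46).

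ELF3 had the largest increase among the members, and EHF, the other epithelial factor, did not pass the test. ELF3 input counts rose from 820, 581 and 670 in DMSO to 3928, 4272 and 4131 in trametinib libraries. Its footprints rose from 1126, 908 and 659 to 3446, 3926 and 3462. The lowest trametinib library was more than 3 times the highest DMSO library in footprints and more than 4 times in input. The changes were 2.57 in input (SE 0.16, adjusted p = 1.7e-07) and 2.01 in footprints (SE 0.19, adjusted p = 5.3e-05), so the mean was 5.96-fold higher in input and 4.02-fold higher in footprints. EHF had input counts of 194, 287 and 206 in DMSO and of 229, 363 and 229 in trametinib libraries, and the groups overlapped. Its changes were 0.25 in input (95% interval -0.24 to 0.75) and 0.20 in footprints (95% interval -0.19 to 0.59). Without replicate 2 of trametinib, the highest in both assays, they were -0.0037 and -0.0199.

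GABPA input counts were 242, 253 and 204 in DMSO and 342, 319 and 247 in trametinib libraries, with an overlap of the groups. Its footprints were 656, 734 and 694 in DMSO and 759, 754 and 902 in trametinib libraries, all 3 above DMSO. The changes of 0.38 in input (SE 0.19, adjusted p = 0.14) and 0.21 in footprints (SE 0.11, adjusted p = 0.15) did not pass the test. When the libraries were scaled by their totals instead, which shifted the median footprint change of all genes to 0.16, the footprint change of GABPA was 0.39 (adjusted p = 0.019).

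Counted over the members, 4 of 10 were lower in input (ETV4, ETV5, ELK3 and ELK4) and 2 were higher (ETS2 and ELF3), against 16.9% of all tested genes lower and 15.2% higher. In footprints 3 of 10 were lower (ETV4, ETV5 and ELK3) and the same pair, ETS2 and ELF3, was higher, against a background of 25.6% lower and 23.8% higher. Scaling by library totals moved the share of higher genes among all called from 48.2% to 64.8% in footprints and from 4.46% to 25.7% in ribosome density, and changed no direction of a called member. ETV4 and ETV5 reached the count minimum in DMSO input libraries only, so the other 8 are also counted alone. Outside the PEA3 factors, 2 of 8 were lower and 2 of 8 higher in input. In footprints 1 of 8 was lower and 2 of 8 were higher. These few genes do not set such shares of the 8 factors apart from those backgrounds. Their median change was 0.06 in input and 0.20 in footprints, beside medians of -0.01 for all tested genes in both assays. Both PEA3 members, by contrast, lay below every one of the other 8, whose lowest change was that of ELK3.

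**Figure D2:**
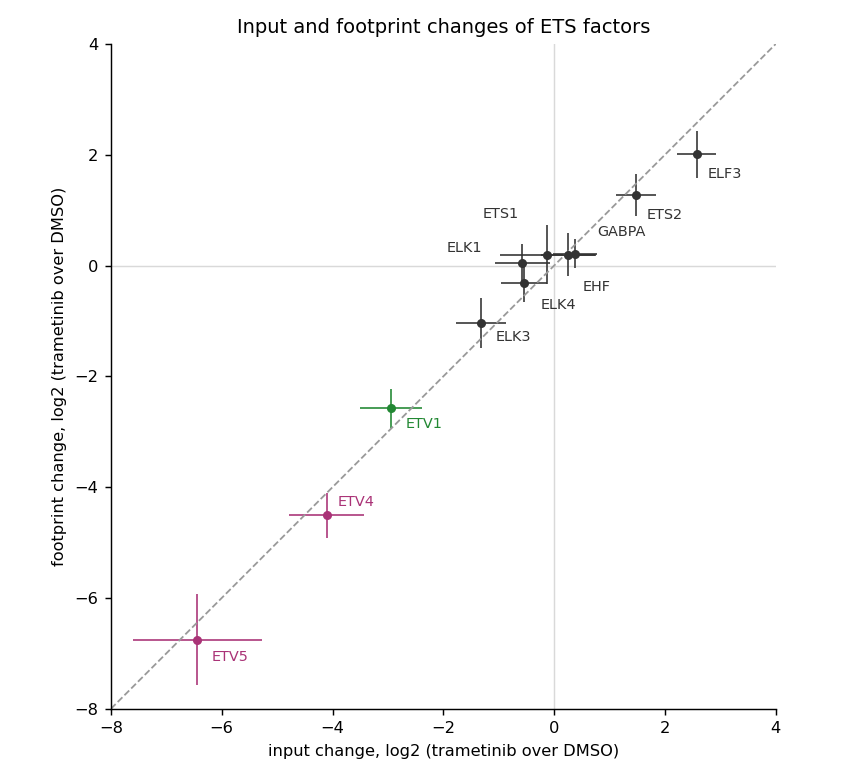
Log2 change of footprints (vertical axis) against log2 change of input (horizontal axis), trametinib over DMSO, for the 10 members and ETV1, with 95% intervals from edgeR as bars. The dashed line marks equal change, and the PEA3 factors ETV4, ETV5 (magenta) and ETV1 (green) lie at the lower left, with ETS2 and ELF3 at the upper right.

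The makeup of this group of mRNAs shifted accordingly. Levels between genes were compared as normalised counts per kilobase of coding sequence. In DMSO input ELF3 (620 per kilobase) and ETV5 (522) were the highest of the 10 and overlapped each other. ELK3 (278), EHF (255), ELK4 (239), ETV4 (219), ETS2 (184), GABPA (171) and ELK1 (166) followed, each overlapping its neighbour in this order. ETS1 was the lowest at 28.6 ± 15.2, and below ELK1 in every library. In DMSO footprints the order was ELF3 (807), ETV5 (762), EHF (644), GABPA (510), ETS2 (363), ELK4 (127), ETV4 (99.1), ELK3 (94.9), ETS1 (79.9) and ELK1 (41.9). There the libraries of ELF3, ETV5 and EHF overlapped from neighbour to neighbour, as did those of ETV4, ELK3 and ETS1, while the other steps did not.

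In trametinib libraries ELF3 stood alone at the top, with 3693 ± 155 per kilobase in input and 3245 ± 245 in footprints, and ETS2 was next in both assays, overlapping EHF in footprints. ETV5 and ETV4 had moved to the last places of the 10. In input they stood at 5.95 ± 5.18 and 12.7 ± 1.32 per kilobase, and in footprints at 7.22 ± 1.74 and 4.37 ± 0.49. ETV4 and ETV5 together took 27.3 ± 4.8% of the counts per kilobase of the 10 factors in DMSO input and 0.365 ± 0.092% in trametinib input. In footprints their share was 23.9 ± 4.2% and 0.202 ± 0.035%. The share of ELF3 was 23.0 ± 1.3% in DMSO input and 71.5 ± 1.5% in trametinib input, and 22.7 ± 2.3% and 56.5 ± 0.96% in footprints. No library of one treatment reached the range of the other in these shares. GABPA and EHF, whose own levels did not pass the test, made up less of the total on average in trametinib libraries. GABPA took 14.8 ± 3.0% of DMSO and 10.4 ± 1.6% of trametinib footprints, with overlap (11.4% to 17.2% against 8.73% to 12.0%). EHF shares overlapped in input (7.07% to 13.2% in DMSO, 4.99% to 7.35% in trametinib). GABPA shares in input and EHF shares in footprints did not overlap.

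**Figure D3:**
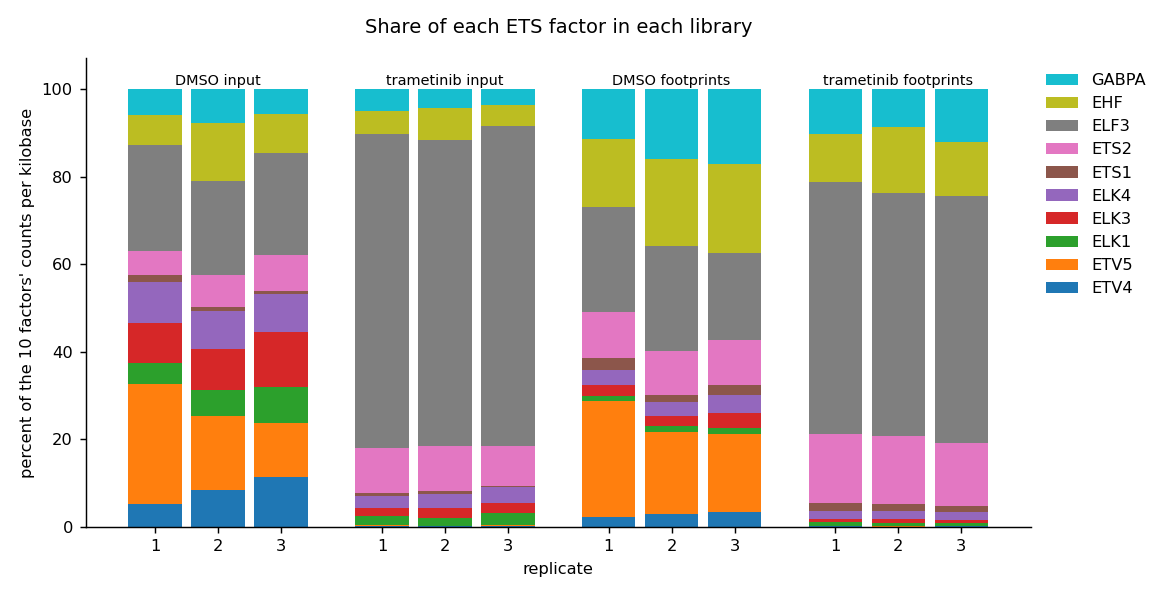
Share of each ETS factor in the summed normalised counts per kilobase of coding sequence of all 10 factors, in percent, with a stacked bar for each of the 12 libraries. The bottom segments, ETV4 and ETV5, are visible in DMSO and nearly absent in trametinib libraries, where ELF3 takes the largest segment of each bar.

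Ribosome density, the footprints of an mRNA relative to its input, asks whether ribosome occupancy changed beyond mRNA abundance. After scaling it is relative to other genes, so a change common to all mRNAs cannot be seen. The study reports reduced global translation in HCT116 under this treatment, from polysome profiles and puromycin incorporation. By edgeR 0 of the 10 members passed the test, for which the background was 1.00% of all tested genes lower and 0.0469% higher. At an unadjusted p under 0.05 there were 2 of 10 members, ELK1 and ELF3, against 8.10% of all tested genes, and DESeq2 and limma-trend also called 0 of 10. For ETV4 the change in ribosome density was -0.40 (SE 0.40, 95% interval -1.27 to 0.46, adjusted p = 0.92). For ETV5 it was -0.31 (SE 0.99, 95% interval -2.44 to 1.81), an interval so wide, with 11 input counts left in trametinib, that neither a considerable gain nor a loss could be detected. A difference between the loss of footprints and the loss of mRNA was thus not detectable for either PEA3 factor at this depth. ELF3 (-0.57, 95% interval -1.10 to -0.04) and ELK1 (0.63, 95% interval 0.05 to 1.21) had intervals that left out 0, but their adjusted p-values were 0.56 each. This edgeR test did not pair input with footprints. With libraries of the same number as a block, the adjusted p-values were 0.18 for ELF3 and 0.38 for ELK1. The remaining 6 members had changes between -0.21 and 0.32.

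Although no change of density relative to other genes was detected for the members, density differed widely between them in DMSO. The log2 ratio of normalised footprints to input was -1.62, -1.80 and -2.47 for ELK1 in the 3 numbered library pairs of DMSO, and 1.44, 1.54 and 1.77 for GABPA at the other end. These means, -1.96 ± 0.45 and 1.58 ± 0.17, placed ELK1 at the 3.96th and GABPA at the 95.9th percentile of 10633 tested genes with a value. ELK3 (-1.55 ± 0.15), ETV4 (-1.10 ± 0.35) and ELK4 (-0.92 ± 0.07) were also below the lower quartile of all genes, -0.65. ELF3 (0.36 ± 0.34) and ETV5 (0.59 ± 0.15) lay inside the quartiles, and ETS2 (0.96 ± 0.46), EHF (1.36 ± 0.26) and ETS1 (1.54 ± 0.38) above the upper one, 0.66. The library pairs of ETS1 and GABPA overlapped, and GABPA counts may include reads of its pseudogene. The subfamilies therefore did not all keep together. All 3 ternary complex factors were low and ETS1 and ETS2 were both high, whereas the PEA3 factors ETV4 and ETV5 were on opposite sides of the median, ETV4 being lower in every library pair. ETV5 exceeded ETV4 by a larger factor in footprints than in input in each of the 3 DMSO pairs.

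**Figure D4:**
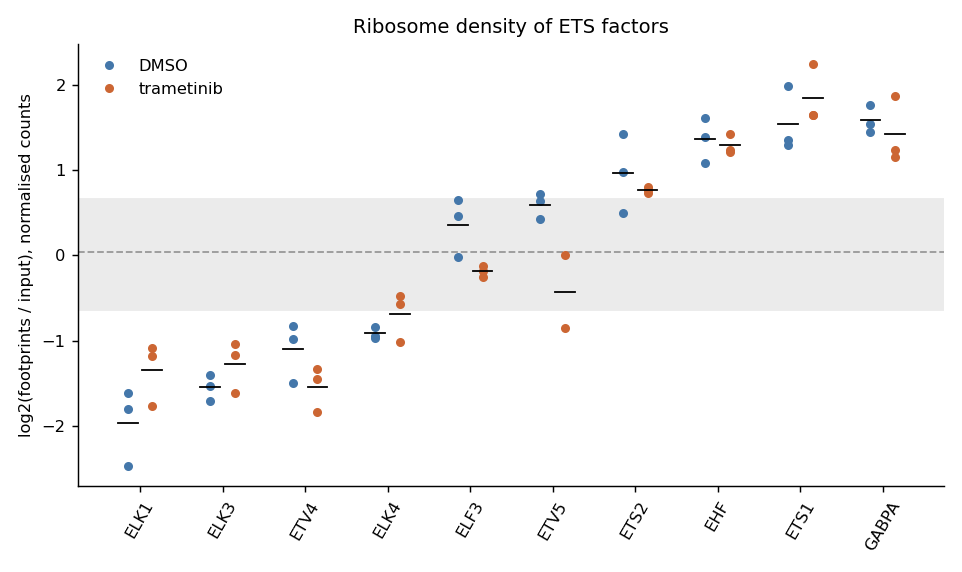
Ribosome density of the 10 factors as log2 of normalised footprints over normalised input for library pairs with the same number, in DMSO and trametinib, with black lines at the means. The dashed line is the median and the grey band the range between quartiles of 10633 tested genes in DMSO, and ETV5 has no point for trametinib replicate 2, whose input count was 0.

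The members' density ran against the base composition of their coding sequences. GABPA, with the highest mean density but counts that may include reads of its pseudogene, had a GC content of 42.1%. ELK1, with the lowest density, had 63.4%. ETV4 (59.8%) had more GC than ETV5 (54.4%), but ELK4 combined a GC content of 46.9% with a low density. Spearman's rho between GC content and DMSO density was -0.76 over the 10 members and -0.28 over 10545 tested genes. Both are correlations across genes, which share the same libraries and are not independent replicates, and they are given as a description. Per library, input was fragmented at random and footprints by RNase I, and the part of this difference in preparation was not tested.

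The DMSO libraries were not alike for all members. ETV5 in DMSO replicate 1 was 2.29 times the mean of replicates 2 and 3 in input and 1.94 times in footprints. ETS1 stood out in the same way, with replicate 1 the highest DMSO library in both assays and 1.77 times the mean of the others in footprints. ETV4 went the other way, at 0.65 and 0.89 times, and was lowest in replicate 1 in both assays. ETV1 (1.17 and 1.08 times) and GABPA (1.06 and 0.92 times) were nearly level. Of the 12 ERK output genes, replicate 1 was the highest DMSO library for 9 in input and for 11 in footprints, compared with 33.9% and 39.3% of all tested genes. The median ratio over the 12 was 1.40 in input and 1.57 in footprints. The ratios of ETV5 were close to those of the ERK output genes EPHA2 (2.06 and 2.25) and FOSL1 (2.63 and 2.38), whereas EGR1 (0.59 and 0.73) was low in replicate 1, as ETV4 was. Without DMSO replicate 1 the change of ETV5 was -5.92 in input and -6.37 in footprints, and that of ETV4 was -4.28 and -4.57. The cause of the difference between the DMSO libraries was not tested.

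**Figure D5:**
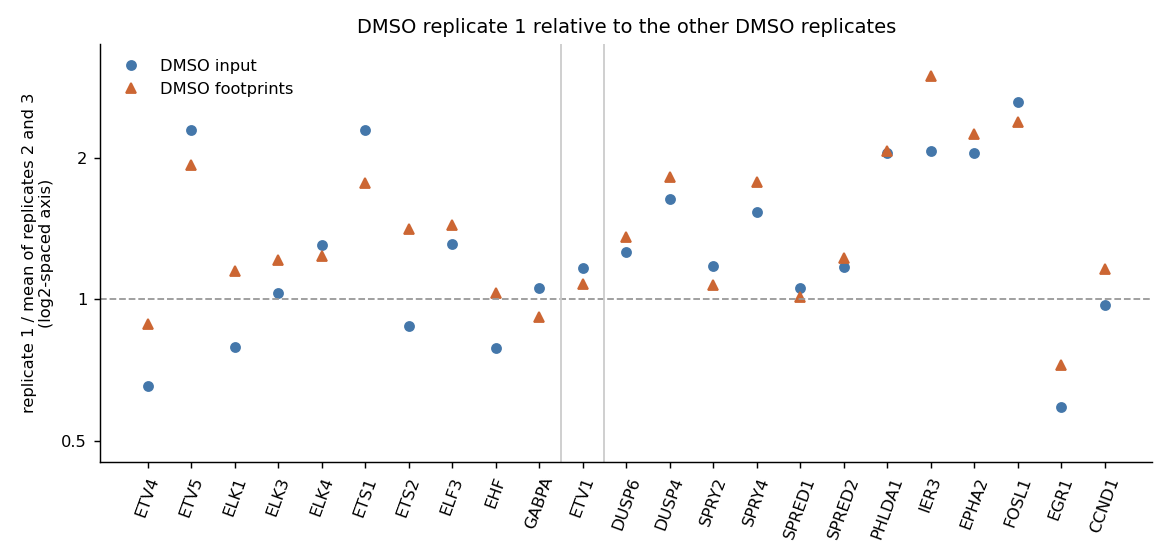
Normalised count in DMSO replicate 1 divided by the mean of DMSO replicates 2 and 3, on a log2-spaced axis, for the 10 members, ETV1 and the 12 ERK output genes, in input (circles) and footprints (triangles). ETV5 and ETS1 lie above 1.7 in both assays, as do PHLDA1, IER3, EPHA2 and FOSL1 with up to 2.99, while ETV4 and EGR1 lie below 1.

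Of 18 other ETS genes, 13 were in the table and 8 had enough input counts to be tested. ETV7 reached the count minimum only in the trametinib libraries, so it could hardly be tested without differing, and it is left out of the count. Of the other 7, ETV1 was lower and ETV6 and ELF1 were higher in input, and ELF4 joined the higher genes in footprints, that is 2 of 7 higher in input and 3 of 7 in footprints against backgrounds of 15.2% and 23.8%. ETV6, a transcriptional repressor, rose by 0.81 in input and 0.86 in footprints (adjusted p = 0.0098 and 0.0023). ELF1 went from input counts of 136, 143 and 72.6 to 320, 219 and 224, changes of 1.12 and 1.01 in the 2 assays (adjusted p = 0.0056 and 0.00083). ETV7, a relative of ETV6, was rare, with 1, 2 and 3 raw input counts in DMSO and 11, 15 and 19 in trametinib libraries. ELF4 had a change of 0.01 in input and of 0.72 in footprints (adjusted p = 0.97 and 0.0014), and its difference in ribosome density of 0.71 did not pass the test (adjusted p = 0.33). ETV3, ERF and ELF2 did not pass either test.

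Partners and regulators of ETS factors were mostly within the error of the test. Of 14 tested, 1 was lower and 1 higher in input, and 1 lower and 4 higher in footprints. The shares of all tested genes were 16.9% lower and 15.2% higher in input and 25.6% and 23.8% in footprints, so the partners as a list do not stand out, and the values below describe single genes. GABPB1, the subunit that gives the GABPA complex its activation domain, went from input counts of 190, 164 and 105 to 74.6, 64.3 and 59.1. It fell by 1.22 in input and by 0.88 in footprints on the log2 scale (adjusted p = 0.0037 and 0.0010), whereas GABPA did not fall and GABPB2 had changes of 0.02 and 0.06. CIC, the repressor of the PEA3 genes, had input counts of 328, 449 and 560 in DMSO and of 753, 718 and 836 in trametinib libraries, a rise of 0.79 (adjusted p = 0.0072). Its footprints changed by 0.39 with overlapping groups (adjusted p = 0.11). ATXN1L, which forms the repressor complex with CIC, rose by 0.57 in footprints (adjusted p = 0.030) with an input change of 0.52 (adjusted p = 0.095). COP1, the ligase of PEA3 proteins, rose by 0.41 in footprints (adjusted p = 0.037), and MRTFB and the Mediator subunit MED23 by 0.44 and 0.29 (adjusted p = 0.0094 and 0.043). SRF, the partner of the ternary complex factors, had changes of -0.04 and -0.28 and did not pass the test.

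The genes whose pattern over the 12 libraries was most like that of ETV4, by Pearson's r of log2(normalised count + 1) among 7668 genes with a mean of at least 100, were DEPDC1B (0.992), ESPL1 (0.992), NCAPH2 (0.991), CIT (0.990) and E2F7 (0.988). For ETV5 they were H2BU1 (0.982), CDKN3 (0.975), CKAP2 (0.975), NEK2 (0.974) and H2AC21 (0.974). ESPL1 (separase), CIT and NEK2 are known for roles in mitosis. The 12 libraries differ by treatment and by assay for all genes alike, and the correlations are given as a description. Neither list holds the other PEA3 factor. ETV4 and ETV5 had unlike ribosome density in DMSO (-1.10 and 0.59), and this assay difference enters the correlations. The lists are thus no comparison of how both factors responded to trametinib.

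Promoter sequences from RefSeq (GRCh38.p14, 250 bases before to 50 after the annotated start) were at hand for 7 of the 10 members, ELK1, ELK3, ELK4, ETS2, ELF3, EHF and GABPA. The site CCGGAAGT, a strong binding sequence of many ETS factors, was searched on both strands and was found in the promoters of ELK4 and GABPA. It occurs in 4.14% of the 35116 promoters in the table. The stretches are shown because ETS genes with an ETS site in their own promoter are of interest beside the changes above, with the site in capitals, at chr1:205632015-205632044 (minus strand, the strand of the gene) and chr21:25734894-25734923 (plus strand, with the site on the other strand):
ELK4: cagcccctcccCCGGAAGTgacgtgtagcg
GABPA: acctccgctctACTTCCGGccctggctccg
In the promoter of ELF3, which rose, the longer site was not found, and the core GGAA, searched on both strands, was seen once in each orientation. It is shown with the core in capitals (chr1:202010337-202010586, plus strand, the 250 bases before the start):
ELF3: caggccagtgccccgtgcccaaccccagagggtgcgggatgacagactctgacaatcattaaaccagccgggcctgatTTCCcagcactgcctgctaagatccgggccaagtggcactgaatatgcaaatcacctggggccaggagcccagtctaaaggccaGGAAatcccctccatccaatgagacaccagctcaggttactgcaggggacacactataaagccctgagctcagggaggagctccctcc
The core alone occurs in 95.5% of promoters, so its presence does not set ELF3 apart. The octamers bound by CIC (TGAATGAA, TGAATGGA, TCAATGAA and TCAATGGA, both strands) occur in 3.77% of promoters and were found in none of those 7 members. A match is a description of these letters and not evidence of binding.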

How the data were processed

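Ribosome footprints and input RNA of HCT116 cells were sequenced in 12 libraries. The authors discarded reads matching rRNA or tRNA (Bowtie 1.2.2, from the submitters' processing notes), mapped the rest to the Gencode basic transcripts and deposited counts of reads within the open reading frames of a single gene symbol, beside the same counts divided by size factors (a signal, used here only to check the size factors, which were equal in 12 of 12 libraries). The authors' own fold changes and adjusted p-values from DESeq2 1.46.0 were not used, and 0 other columns of values per library were left out.

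Counts were tested with edgeR 4.0.16 (R 4.3.3), quasi-likelihood F-tests, two-sided, with median-of-ratios size factors over 12 libraries. The 10663 genes that reached 10 counts in 3 or more of the 6 input libraries were tested within input, within footprints, and as the interaction of assay and treatment (ribosome density). The main density test held no term for the dish, so input and footprints of a lysate entered as independent libraries. Benjamini-Hochberg adjusted p-values under 0.05 were called. A change common to all mRNAs cannot be seen after such scaling. Alternatives were DESeq2 1.42.0, limma-trend (limma 3.58.1, prior count 2), TMM or total scaling, other count filters, replicate blocks and leaving out each library. Intervals cover 95% and come from the fit.

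Members, gene lists and tests were chosen with earlier results of these data known. Named genes were the members and, from the fixed lists of other ETS genes and of partners, every gene that passed a test and some that did not. Values of ERK output genes and markers were given for some genes only. The ERK output genes were DUSP6, DUSP4, SPRY2, SPRY4, SPRED1, SPRED2, PHLDA1, IER3, EPHA2, FOSL1, EGR1 and CCND1. The 5 genes most like ETV4 and ETV5 were added by rank. Coding lengths, GC content and shared stretches of 30 bases came from canonical transcripts of Gencode release 44.

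Deviations from the group means of same-numbered libraries, over 7669 genes, correlated across treatments at 0.117, 0.133 and 0.294 in footprints. In input the values were 0.068, 0.048 and 0.33. The numbers may pair libraries across treatments, but these values do not settle it for either assay. Any pairing across treatments rests on these values, since no label states it, and the block changed no member's call in footprints. Between input and footprints of the same number, the values were 0.816, 0.181 and 0.343 in DMSO. In trametinib they were 0.141, 0.080 and -0.122. The study took both from the same lysates, but no label states that equal numbers mark them. The ribosome density per library pair rests on that assumption.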

Additional observations from a re-analysis of the deposited data

How the results depend on the processing

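Of 517 recomputed changes of the 10 members and ETV1, 489 stayed on the same side of the threshold in the same direction, 6 lost their call, 4 gained one and 18 turned direction, all 18 being changes that did not pass the test. ELK4 input lost its call under TMM and without any of 5 libraries, and ELK1 input gained one with the replicate block (-0.57, adjusted p = 0.028). Whether the numbers pair the input libraries was not settled by the check used, and the block changed no other call of a member. With input and footprints of the same number as a replicate block, 18 genes were higher in ribosome density, against 5. That count was 35 with DESeq2, 10 with TMM, 27 with library totals and 12 without DMSO replicate 1 in both assays, an alternative added after seeing the data. Leaving out single libraries gave 1 to 12 higher and 68 to 130 lower genes in ribosome density, and 1073 (without trametinib input replicate 2) to 1744 higher genes in input, while the count of called members in ribosome density was 0 throughout.

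The direction turned in ribosome density for ETV5 under limma-trend (0.26), for EHF under TMM (0.015) and library totals (0.12), for GABPA under library totals (0.0068), and without DMSO replicate 1 in both assays for ETS2 (0.036) and EHF (0.072). Leaving out single libraries gave changes of -0.37 to 0.40 for ETS1 and -0.0037 to 0.45 for EHF in input, and of -0.015 to 0.13 for ELK1 and -0.0199 to 0.34 for EHF in footprints. In ribosome density it gave -0.88 to 0.21 for ETV5, -0.20 to 0.66 for ETS1 and -0.27 to 0.20 for EHF. The cause of these shifts was not tested. ETV4, ETV5, ELK3, ETS2 and ELF3 stayed called in input and footprints under every alternative. Input depth limits ETV5 in trametinib and ETS1 in both groups, which had at most 31 counts per input library.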
